A study of Mus musculus with 21 samples.

Results

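Dot1l is the enzyme that methylates histone H3 on its globular core, and the 10 genes described here encode Dot1l and the proteins that work beside it in transcription elongation. They were Dot1l itself, its cofactors Mllt10 and Mllt6, the chromatin readers Mllt1 and Mllt3, the super elongation complex scaffolds Aff1 and Aff4, the elongation factor Ell2, and the kinase and cyclin Cdk9 and Ccnt1. All 10 were found by gene symbol among 53796 genes in each of 3 deposited expression tables. RNA sequencing gave 3 libraries in each of 5 groups of mouse embryonic stem (ES) cells of strain V6.5. The groups called Control LIF and Control Wnt are labelled wild type and had received a control guide RNA (sgRNA), and those called Dot1l KO LIF and Dot1l KO Wnt are labelled as Dot1l knockout (KO). The LIF groups were kept in serum medium with 100 U/ml leukemia inhibitory factor (LIF), which holds ES cells undifferentiated, on a layer of inactivated mouse fibroblasts. The Wnt groups went through 2 days in the serum-free medium N2B27, which also held the kinase inhibitor Y-27632. Wnt3a at 50 ng/ml was then given for 24 h together with activin A at 10 ng/ml, a treatment that drives cells towards the primitive streak. The ES cells group was also given LIF at 100 U/ml and was not differentiated. Its sample labels give the genotype Cdk1as/as, an analog-sensitive form of the kinase Cdk1, whereas the series' design text speaks of wild-type cells. Whether the KO cells are 1 clone or a pool, which part of Dot1l was targeted and whether replicates were separate cultures is not stated in the labels. The p-values therefore cover only the scatter among libraries, and that scatter may be technical.

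Methylation of H3K79 follows elongating RNA polymerase II through active genes, and Dot1l is the main enzyme known to place it. Mllt10 and Mllt6 bind Dot1l and help it to extend the mark. Mllt1 and Mllt3 read acylated histones through a YEATS domain, and each can join either Dot1l or the super elongation complex. That complex is built on Aff1 or Aff4 and carries an Ell protein and P-TEFb, the kinase made of Cdk9 and cyclin T1 (Ccnt1), which releases paused polymerase. Several of these genes are known as fusion partners in leukaemia with rearranged MLL.

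Under Wnt3a and activin A, 4 of these genes had a higher transcript level in the KO (Mllt1, Aff1, Aff4 and Ell2). The sequences upstream of the starts of these 4 are shown for that reason, and whether they move together was not tested. The bases come from RefSeq's table of promoters on GRCm38.p6, which held all 10 genes with 14 windows of 250 bases before a start. Only bases outside the RefSeq span of the gene are printed, except for Aff1, whose window lies before a start inside its longest annotated span. The stretches are chr17:56935510-56935638 on the minus strand for Mllt1, chr5:103753912-103754161 on the plus strand for Aff1, chr11:53350517-53350639 on the plus strand for Aff4 and chr13:75707234-75707483 on the plus strand for Ell2. Each reads 5′ to 3′ on the strand of the gene, and capitals mark the GC box letters GGGCGG and the letters CCAAT on either strand.
Mllt1: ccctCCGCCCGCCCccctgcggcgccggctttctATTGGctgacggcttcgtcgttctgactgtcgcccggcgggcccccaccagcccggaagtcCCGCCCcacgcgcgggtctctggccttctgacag
Aff1: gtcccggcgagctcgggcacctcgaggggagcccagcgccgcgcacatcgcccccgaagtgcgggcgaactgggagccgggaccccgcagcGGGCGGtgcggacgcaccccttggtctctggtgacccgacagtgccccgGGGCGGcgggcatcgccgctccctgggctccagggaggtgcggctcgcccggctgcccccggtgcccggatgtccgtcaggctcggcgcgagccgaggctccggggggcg
Aff4: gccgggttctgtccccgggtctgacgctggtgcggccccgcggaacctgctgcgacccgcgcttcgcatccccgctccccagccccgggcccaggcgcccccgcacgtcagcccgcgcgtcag
Ell2: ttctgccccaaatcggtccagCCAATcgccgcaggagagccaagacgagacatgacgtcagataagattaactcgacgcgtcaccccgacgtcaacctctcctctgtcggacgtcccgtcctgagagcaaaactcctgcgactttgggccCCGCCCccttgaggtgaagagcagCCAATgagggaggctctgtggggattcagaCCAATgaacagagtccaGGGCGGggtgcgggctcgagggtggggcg
The Ell2 stretch held 2 GC boxes and 3 CCAAT matches, that of Aff1 held 2 GC boxes and that of Aff4 held neither motif. In the Mllt1 stretch 3 GC box matches, of which the first 2 overlap by 2 bases, and 1 CCAAT match were found. Over the full windows of all 10 genes, 10 of 14 held the GC box, against 32.7% of 32851 promoter windows of the same length, and 6 of 14 held CCAAT, against 33.8%. The TATA box letters TATAAA were found in 0 of 14 windows, against 12.4% of all, and the TCF/LEF core CTTTGA, searched because Wnt3a acts through TCF/LEF factors, in 0 of 14, against 13.8%. CG dinucleotides numbered 4 to 44 per window, against a median of 6 over all windows. Only windows of Mllt10 and Mllt3 with 4 or 5 lay below that median. Every other window held 19 or more, a percentile of 82.1 or above among all windows. These counts describe the letters of the windows and do not show binding.

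The RefSeq spans on GRCm38.p6 place Dot1l at chr10:80755101-80795461, its cofactors Mllt10 at chr2:18055160-18212390 and Mllt6 at chr11:97663122-97685461, and the readers Mllt1 at chr17:56892608-56935509 and Mllt3 at chr4:87769925-88033407. Aff1 spans chr5:103692362-103855322, Aff4 chr11:53350640-53421830 and Ell2 chr13:75707484-75772361. Cdk9 lies at chr2:32705782-32712784 and Ccnt1 at chr15:98538690-98567736. The longest of these spans is that of Mllt3 (263 kb) and the shortest that of Cdk9 (7.00 kb).

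The genes differed widely in level and in how the level moved with culture condition. Levels are in FPKM (fragments scaled to transcript length and library size), which is per length, so genes can be ordered within a library. The 3 tables were scaled separately, so levels set side by side between LIF, Wnt and the ES cells group carry no test. Cdk9 had the highest mean of the 10 genes in every group, from 61.2 ± 3.76 FPKM (SD, n = 3) in the ES cells group to 108 ± 5.35 in Control Wnt. Aff4 ranked second in the ES cells group and in both LIF groups, but sixth in Control Wnt and second again in Dot1l KO Wnt. In Control Wnt the ranges of Aff4, Ell2 and Mllt6 overlapped in turn, and Aff1 had the lowest mean.

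**Figure D1:**
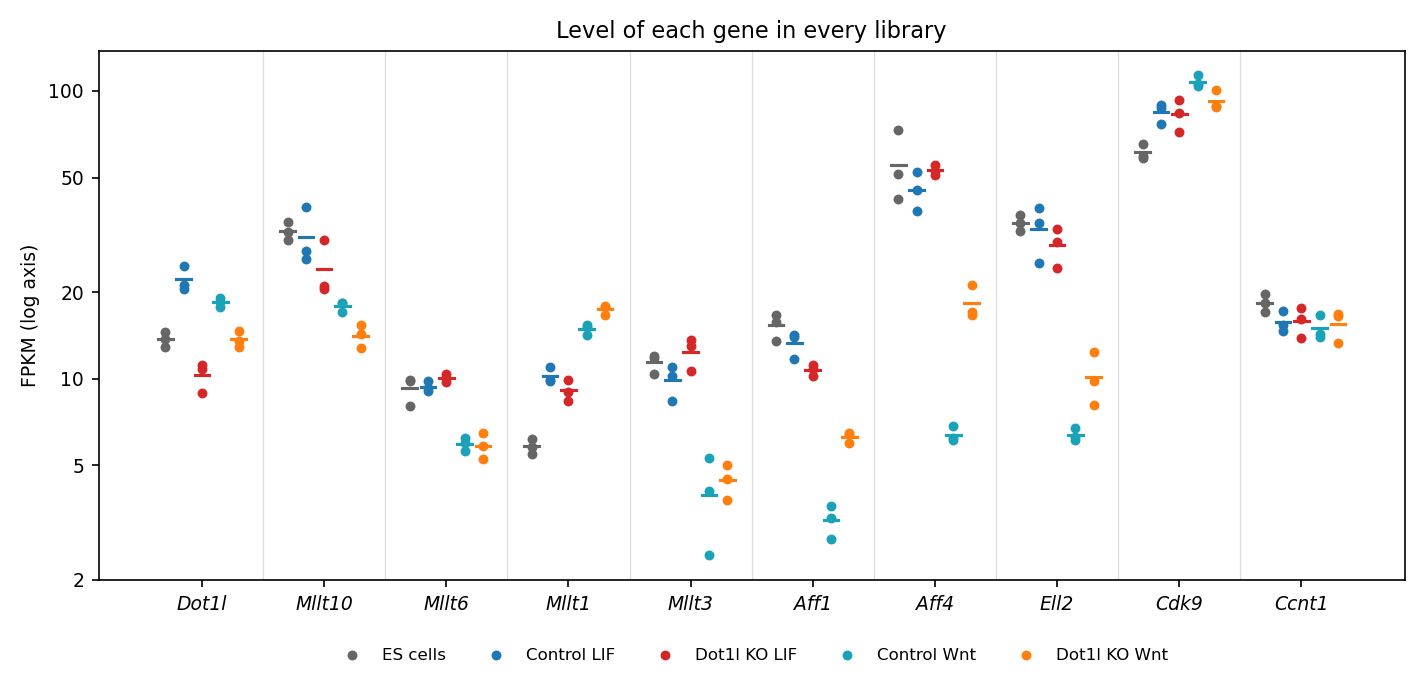
FPKM on a log axis for each of the 10 genes, with 1 point per library coloured by group and a bar at the group mean (3 libraries a group). Aff1, Aff4 and Ell2 sit lowest in Control Wnt with Dot1l KO Wnt above them, and the Dot1l points of the KO groups lie below those of their controls.

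Dot1l transcript was lower in both KO groups and was detected in every KO library. In LIF its level was 21.2, 20.6 and 24.6 FPKM in the control libraries and 11.2, 8.90 and 10.8 FPKM in the KO libraries. All 3 KO libraries lay below all 3 controls, and the mean was 53.5% lower, with a log2 fold change of -1.04 (SE 0.11, 95% interval -1.31 to -0.76, limma adjusted p = 0.0178). After differentiation its level in the controls was 18.5, 17.7 and 19.1 FPKM, and in the KO libraries 13.5, 12.9 and 14.7 FPKM. The groups again did not overlap, but the difference was smaller, with a mean 25.7% lower and a log2 fold change of -0.40 (SE 0.07, limma adjusted p = 0.00462). The KO effect on Dot1l differed between the conditions by 0.63 on the log2 scale (SE 0.14, limma adjusted p = 0.00426 for the interaction). Here and throughout, a log2 fold change is the KO mean minus the control mean of log2(FPKM + 1), a scale that understates the change of low genes, and a gene is said to rise or fall when its limma p adjusted over all genes tested is under 0.05. The ES cells group was at 14.5, 13.7 and 12.9 FPKM, below both control groups and overlapping with Dot1l KO Wnt. Transcript level does not measure the enzyme, and leaving out any 1 of the 6 libraries ended the Dot1l call in LIF, with limma adjusted p-values between 0.0557 and 0.0781 and log2 fold changes between -1.09 and -0.94.

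Dot1l was the only 1 of the 10 genes called in LIF, against 4.41% of 13153 genes tested (3.45% lower and 0.958% higher). It was also the only one with a q-value under 0.05 in the authors' deposited table (0.00196), where 6.73% of genes with a q-value were. The median log2 fold change of the 10 genes was -0.09, and that of all genes tested was -0.07. Aff1 came next in order of unadjusted p: its control libraries were at 11.7, 13.9 and 14.2 FPKM and its KO libraries at 10.8, 10.2 and 11.1 FPKM. The groups did not overlap, but the log2 fold change of -0.28 did not pass (95% interval -0.50 to -0.06, limma adjusted p = 0.129). Non-overlapping groups were found for 2 of the 10 genes, Dot1l and Aff1, and for 31.2% of all genes tested (22.5% with the KO lower and 8.66% with the KO higher). Intervals of the other 8 genes all held 0, and their widths differ: that of Ccnt1 ran from -0.26 to 0.27 and that of Mllt10 from -0.88 to 0.15.

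After Wnt3a and activin A treatment, 7 of the 10 genes changed, 4 higher and 3 lower in the KO, against 49.1% of 12770 genes tested (19.6% higher and 29.5% lower). With close to 1 gene in 2 called in this comparison, the count by itself says little about these genes. By size of change, Aff4 ranked at 252 of 12770 genes counted from the highest. The median of the 10 genes was 0.11, against -0.08 for all genes. Groups did not overlap for the same 7 genes, against 60.1% of all genes tested (34.8% with the KO lower and 25.3% with the KO higher). By the authors' deposited table, 5 of these 7 had a q-value under 0.05, all but Mllt10 and Cdk9, against 45.1% of genes with a q-value. Summed FPKM was 1087971 to 1144373 in the controls and 759255 to 792381 in the KO libraries, and values after rescaling of the libraries are given for Aff4, Aff1, Ell2, Mllt10 and Cdk9.

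**Figure D2:**
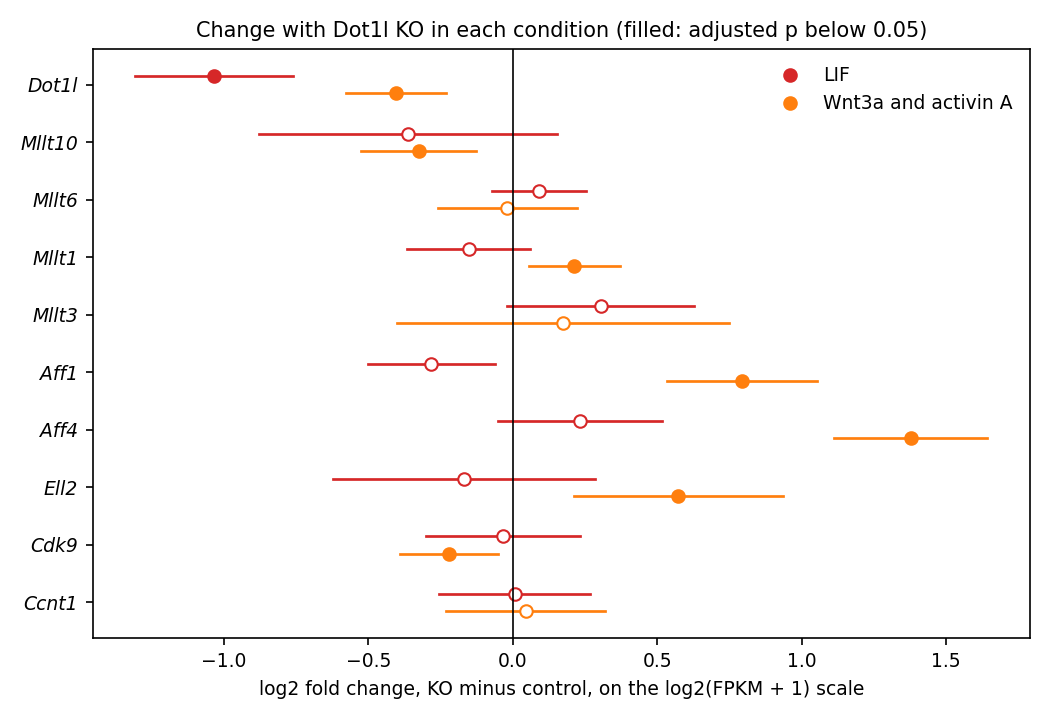
Log2 fold change of each gene, KO minus control on the log2(FPKM + 1) scale, with the 95% interval from limma as a line, for both culture conditions. Filled points passed an adjusted p of 0.05: only Dot1l (-1.04) in LIF, and 7 genes under Wnt3a and activin A, with Aff4 (1.38) farthest to the right.

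Of the cofactors, Mllt10 fell after Wnt3a and activin A treatment, and the intervals of Mllt6 held 0 in both conditions. Mllt10, which binds Dot1l and reads unmodified histone H3, was at 18.4, 18.4 and 17.0 FPKM in the controls and at 12.8, 15.3 and 14.3 FPKM in the KO. Every KO library was below every control, and Mllt10 fell by 0.33 on the log2 scale (SE 0.08, limma adjusted p = 0.0185), with a mean 21.2% lower. The call ended without control replicate 1 (adjusted p = 0.0577) or 2 (0.0572), and in the authors' deposited table Mllt10 had a q-value of 0.354. In LIF Mllt10 spread widely, at 27.7, 39.6 and 26.1 FPKM in the controls against 20.5, 30.4 and 21.0 FPKM in the KO, so that replicate 2 was the high library of both groups and the groups overlapped (log2 fold change -0.36, limma adjusted p = 0.353). Mllt6, the close relative of Mllt10, was at 6.21, 6.00 and 5.60 FPKM in Control Wnt and 5.25, 6.48 and 5.86 FPKM in Dot1l KO Wnt. These values interleave, and the interval of the difference ran from -0.26 to 0.22 on the log2 scale. In LIF it was at 9.06 to 9.83 FPKM in the controls and 9.78 to 10.4 FPKM in the KO, with an interval of -0.07 to 0.25.

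A ratio of 2 genes in the same library does not depend on how libraries were scaled, so ratios were formed for 5 pairs fixed by role and compared with an exact two-sided permutation test, whose smallest possible p is 0.1 with 3 against 3 libraries and 0.2 after Benjamini-Hochberg adjustment over the 10 tests here. No ratio could therefore pass 0.05. The ratio of Mllt10 to Mllt6 under Wnt3a and activin A was 2.96, 3.06 and 3.05 in the controls and 2.44, 2.36 and 2.44 in the KO. The groups lay apart with little spread, at 3.02 ± 0.0551 against 2.41 ± 0.0440 (SD, n = 3, exact permutation p = 0.1). In LIF the same ratio overlapped between groups, with mean log2 ratios of 1.70 in the controls and 1.23 in the KO (exact permutation p = 0.3). The ES cells group had a mean ratio of 3.57. Mllt10 shares its listed locus with Dnajc1, which was at 9.47, 8.13 and 6.18 FPKM in Control Wnt and 4.39, 6.06 and 6.67 FPKM in Dot1l KO Wnt, and where listed loci overlap the values of both genes are uncertain.

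Of the readers Mllt1 and Mllt3, Mllt1 rose under Wnt3a and activin A while the interval of Mllt3 held 0. Mllt1 was at 14.2, 15.1 and 15.4 FPKM in the controls and at 16.6, 17.8 and 17.9 FPKM in the KO. The KO libraries were all above the controls by a small step, 1.17-fold in the means (log2 fold change 0.21, SE 0.06, limma adjusted p = 0.0355). That call ended in 8 of the 13 alternative analyses, among them those without control replicate 1, 2 or 3 or KO replicate 2 or 3 (limma adjusted p from 0.0559 to 0.104). Mllt3 was at 5.33, 2.44 and 4.08 FPKM in Control Wnt and 4.50, 5.02 and 3.80 FPKM in Dot1l KO Wnt. Control replicate 2 was the lowest value and control replicate 1 the highest, and the interval of the difference ran from -0.40 to 0.75. In LIF Mllt1 was at 9.81, 9.91 and 11.0 FPKM in the controls and 9.02, 9.92 and 8.39 FPKM in the KO (limma adjusted p = 0.343), and Mllt3 at 8.36, 11.0 and 10.3 against 13.0, 13.6 and 10.6 FPKM (limma adjusted p = 0.225). Neither difference passed, and the groups overlapped for both genes.

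Set side by side, the ratio of the readers Mllt1 and Mllt3 spanned more between culture conditions than between genotypes, a difference with no test. Mllt3 was above Mllt1 in the ES cells group, where the ratio of Mllt1 to Mllt3 had a mean of 0.514. In Control LIF the ratio was 1.17, 0.901 and 1.07, and in Dot1l KO LIF 0.695, 0.727 and 0.790. The KO libraries were all below the controls (mean log2 ratio 0.06 in the controls and -0.44 in the KO, exact permutation p = 0.1). With Wnt3a and activin A the ratio was 2.67, 6.20 and 3.76 in the controls and 3.70, 3.54 and 4.72 in the KO, all far above the LIF libraries. There the KO values lay inside the range of the controls (exact permutation p = 1.0). This went with a Mllt1 level that was higher in the Wnt groups than in the LIF groups, and a Mllt3 level that was lower.

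Aff4, a scaffold of the super elongation complex, had the largest change of the 10 genes in either condition. It was at 6.83, 6.21 and 6.11 FPKM in Control Wnt and at 21.1, 17.1 and 16.6 FPKM in Dot1l KO Wnt. The lowest KO library was above the highest control by a wide gap, with a ratio of the means of 2.86 and a log2 fold change of 1.38 (SE 0.11, limma adjusted p = 0.000248). In LIF the controls were at 52.5, 38.1 and 45.2 FPKM and the KO libraries at 52.5, 55.1 and 51.2 FPKM. Those groups overlapped, with a log2 fold change of 0.23 (95% interval -0.05 to 0.52, limma adjusted p = 0.282). The ES cells group was at 51.3, 72.9 and 42.0 FPKM, and its range overlapped with those of both LIF groups. The Control Wnt level was thus the lowest of the 5 groups, and the level in Dot1l KO Wnt lay between it and the LIF groups. As a percentile among genes of 1 FPKM or more in the same library, the median for Aff4 was 77.3 in Control LIF, 82.5 in Dot1l KO LIF, 36.0 in Control Wnt and 59.5 in Dot1l KO Wnt.

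Aff1, the other scaffold gene described here, followed the same order under Wnt3a and activin A at a lower level. It was at 3.29, 3.60 and 2.78 FPKM in Control Wnt and at 6.41, 6.50 and 5.98 FPKM in Dot1l KO Wnt. The groups were well apart, with a ratio of the means of 1.95 (log2 fold change 0.79, SE 0.11, limma adjusted p = 0.00162). In LIF, by contrast, its level was lower in every KO library than in every control, as given above. In the ES cells group it was at 15.8, 16.7 and 13.5 FPKM, which overlapped with Control LIF.

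Relative to Aff4 in the same library, Aff1 was lower in the KO in both conditions. The ratio of Aff1 to Aff4 was 0.224, 0.365 and 0.315 in Control LIF and 0.206, 0.186 and 0.217 in Dot1l KO LIF. Under Wnt3a and activin A it was 0.482, 0.580 and 0.454 in the controls and 0.303, 0.380 and 0.360 in the KO. In each condition all 3 KO libraries lay below all 3 controls, with the same mean difference in the log2 ratio of -0.54 (exact permutation p = 0.1 in each, adjusted p = 0.2).

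**Figure D3:**
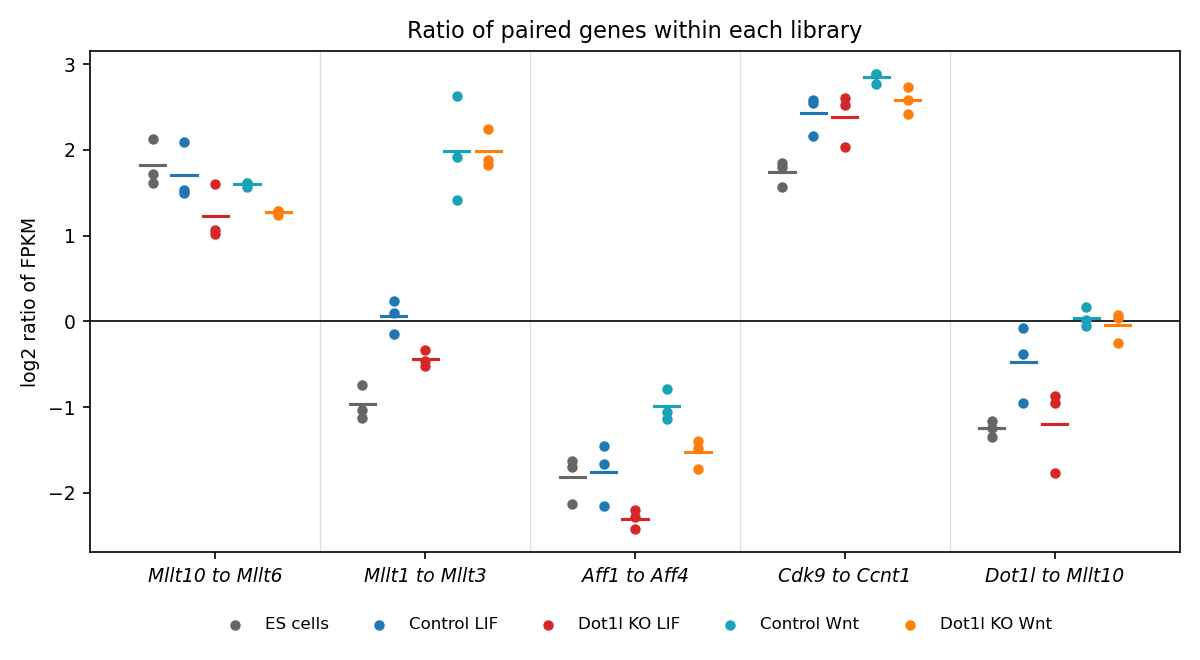
Log2 ratio of FPKM of 2 genes within each library, for 5 pairs, with 1 point per library and a bar at the group mean (3 libraries a group). The Aff1 to Aff4 ratio is lower in the KO than in the controls of the same condition in all libraries, and the Mllt1 to Mllt3 ratio is near 2 in both Wnt groups and near 0 or below in the others.

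Ell2, which raises the rate of RNA polymerase II, also rose under Wnt3a and activin A. It was at 6.14, 6.75 and 6.26 FPKM in Control Wnt and at 9.84, 12.4 and 8.10 FPKM in Dot1l KO Wnt. The KO libraries were all higher but more spread out, with replicate 2 the highest (ratio of the means 1.58, log2 fold change 0.57, SE 0.15, limma adjusted p = 0.0204). In LIF the controls were at 34.9, 39.2 and 25.3 FPKM and the KO libraries at 24.3, 30.0 and 33.1 FPKM. These overlapped, with an interval from -0.62 to 0.28 on the log2 scale. Like Aff4 and Aff1, Ell2 was at a lower level in both Wnt groups than in any LIF or ES cells library. The Ell2 call ended without control replicate 1 (limma adjusted p = 0.0598) or 3 (0.0573) or KO replicate 1 (0.0555), and once a trend with span and level was taken out (log2 fold change 0.35, limma adjusted p = 0.1).

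Of the P-TEFb subunits, Cdk9 fell by a small amount under Wnt3a and activin A, while the intervals of Ccnt1 held 0 in both conditions. Cdk9 was at 105, 104 and 114 FPKM in Control Wnt and at 88.0, 88.6 and 100.4 FPKM in Dot1l KO Wnt. The groups did not overlap, and Cdk9 fell by 0.22 on the log2 scale (SE 0.07, limma adjusted p = 0.0402), a mean 14.2% lower. This direction depended on the processing: the log2 fold change was 0.15 after quantile normalization (limma adjusted p = 0.106) and 0.25 with the trend in gene span and level removed (limma adjusted p = 0.0213), and in the authors' deposited table the q-value was 0.207. The call also ended without any 1 library other than KO replicate 3 (limma adjusted p from 0.0617 to 0.115). With median-of-ratios rescaling, with genes of low level kept, or without a variance trend, Cdk9 stayed lower in the KO but was not called. The listed locus of Cdk9, the shortest of the 10 genes, also holds Mir2861, which was listed at 0 in all control libraries and at 333 FPKM in replicate 3 of Dot1l KO Wnt. Mir2861 was also at 450.5 and 277 FPKM in replicates 2 and 3 of Dot1l KO LIF and at 56.1 and 126 FPKM in replicates 2 and 3 of the ES cells group, and was listed at 0 in the other libraries. In LIF Cdk9 was at 89.6, 87.5 and 76.8 FPKM in the controls and 92.7, 84.0 and 71.9 FPKM in the KO, with an interval of -0.30 to 0.23. Ccnt1, the cyclin subunit, was the steadiest gene: it ranged from 13.4 to 19.7 FPKM over all 15 libraries, and neighbouring groups in the order of its level overlapped throughout. Its intervals were -0.26 to 0.27 in LIF and -0.23 to 0.32 under Wnt3a and activin A. The ratio of Cdk9 to Ccnt1 was 7.38, 7.41 and 6.82 in Control Wnt and 5.34, 6.63 and 6.00 in Dot1l KO Wnt. The KO libraries were lower throughout (mean ratio 7.20 ± 0.334 against 5.99 ± 0.647, SD, n = 3, exact permutation p = 0.1), while in LIF the groups overlapped (exact permutation p = 0.8). The ES cells group had the lowest mean ratio, 3.35.

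The effect of the KO differed between the conditions for 5 of the 10 genes, all of them more positive under Wnt3a and activin A, against 38.3% of 11783 genes tested in both tables (17.6% more positive and 20.7% more negative). The difference was 1.15 for Aff4 (SE 0.16, limma adjusted p = 0.000418) and 1.08 for Aff1 (SE 0.14, limma adjusted p = 0.000193). It was 0.74 for Ell2 (SE 0.25, limma adjusted p = 0.0397) and 0.37 for Mllt1 (SE 0.11, limma adjusted p = 0.0199). The Ell2 difference lost its call in 13 of 19 alternatives, among them the fit that kept genes of low level (limma adjusted p = 0.0715), quantile normalization (0.152), removal of the span and level trend (0.255) and a replicate block (0.068). It also ended without replicate 1 or 2 of Control LIF, Dot1l KO LIF or Dot1l KO Wnt, or any 1 Control Wnt library (limma adjusted p from 0.0552 to 0.0898). The Mllt1 difference lost its call on removal of that trend (limma adjusted p = 0.0548) and with a replicate block (0.0612). Dot1l was the fifth, since it was less reduced under Wnt3a and activin A. For Mllt10 the difference was 0.04 with a wide interval of -0.50 to 0.57. The differences for Mllt6, Mllt3, Cdk9 and Ccnt1 lay between -0.19 and 0.04, and the interval of each held 0. The ratio of Dot1l to Mllt10 was 0.766, 0.518 and 0.944 in Control LIF and 0.547, 0.292 and 0.515 in Dot1l KO LIF, with overlapping groups (exact permutation p = 0.2). Under Wnt3a and activin A it was near 1 in both groups, at 1.03 ± 0.0799 in the controls and 0.975 ± 0.116 in the KO (SD, n = 3, exact permutation p = 0.7).

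How the 3 scaffold and elongation factor genes stood against the scaling of libraries was checked because the controls and KO libraries under Wnt3a and activin A differed in summed FPKM. With median-of-ratios rescaling, quantile normalization and removal of a trend with gene span and level, the log2 fold change of Aff4 was 1.46, 1.35 and 1.19. That of Aff1 was 0.87, 0.68 and 0.51, and Aff4 and Aff1 passed the threshold in each. That of Ell2 was 0.66, 0.48 (limma adjusted p = 0.0475) and 0.35, and the last did not pass (limma adjusted p = 0.1). The span of Aff1 was at the 90.7th percentile of genes tested in LIF, and that of Aff4 at the 74th. Mllt10 fell in each of the 3 as well, by 0.24, 0.31 and 0.40, and the Dot1l, Aff1 and Aff4 calls under Wnt3a and activin A held in all 13 alternatives tried.

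**Figure D4:**
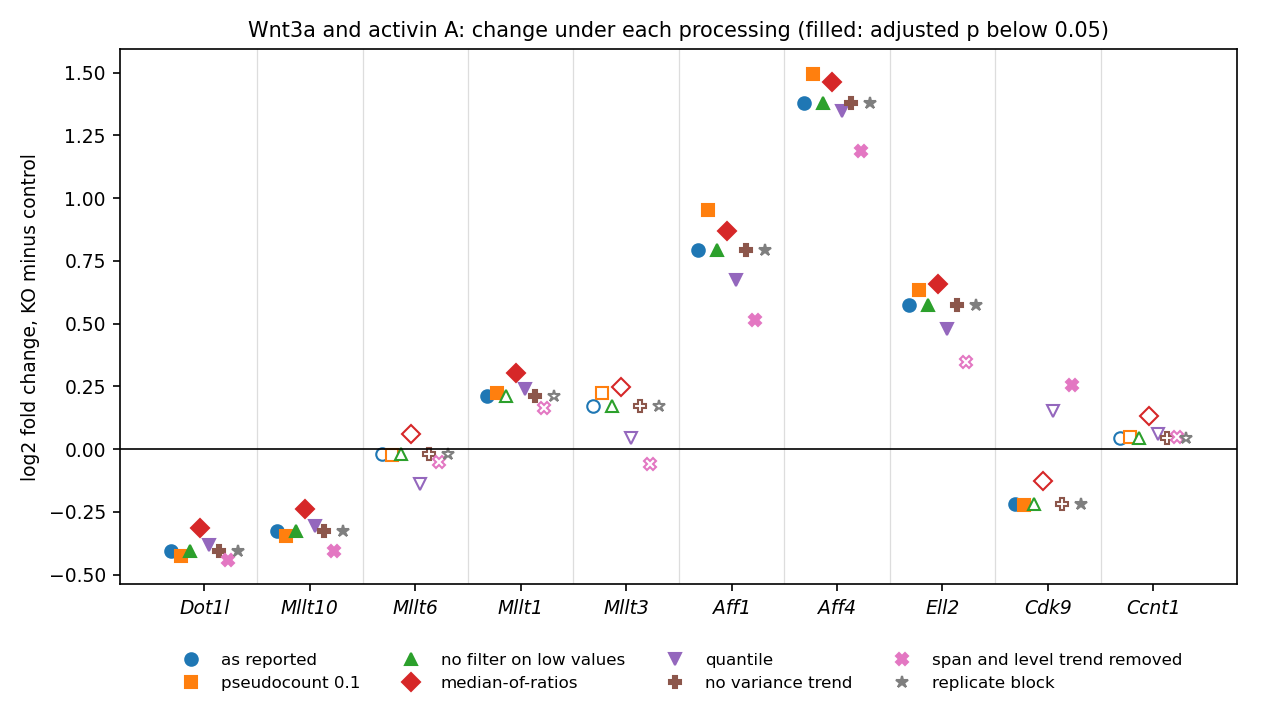
Log2 fold change of each gene under Wnt3a and activin A, KO minus control, as reported and under 7 other processings of the same libraries; filled symbols passed an adjusted p of 0.05. Aff4, Aff1, Dot1l and Mllt10 keep their direction and stay filled throughout, while Cdk9 lies on both sides of 0.

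Related genes outside the 10 were counted in lists by role. Of 6 further super elongation complex genes 5 were tested, and under Wnt3a and activin A 2 rose and 1 fell, against 19.6% of all genes tested higher and 29.5% lower. Eaf1, an Ell-associated factor, rose from 10.9 to 27.5 FPKM (log2 fold change 1.26, limma adjusted p = 0.00011). Aff3, a relative of Aff4, rose from 1.80 to 3.96 FPKM, and Ell3, a relative of Ell2, fell from 19.4 to 11.8 FPKM. The median of this list was 0.22, against -0.08 for all genes. In LIF none of the 5 was called, with a median of 0.01, and only 4.41% of all genes tested were called there.

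Regulators of P-TEFb include the proteins that hold it in the inactive 7SK particle and further binding partners of the kinase. Under differentiation Ccnt2, the alternative cyclin of Cdk9, rose from 6.57 to 13.5 FPKM (log2 fold change 0.94, limma adjusted p = 0.000433), which contrasts with the overlapping values of Ccnt1. Larp7, which binds 7SK RNA, fell by 0.39 on the log2 scale, but its log2 fold change was -0.075 after quantile normalization and did not pass (limma adjusted p = 0.204). In LIF the P-TEFb inhibitor Hexim1 fell, and it was the only member of this list called there, from 19.9 to 14.4 FPKM (log2 fold change -0.44, limma adjusted p = 0.0372). Without any 1 of the 6 libraries that call ended, with limma adjusted p-values from 0.0749 to 0.122. Among all genes tested 4.41% were called in LIF.

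Of 19 pausing and elongation factors 5 rose and 10 fell after Wnt3a and activin A treatment (median -0.21), and none was called in LIF (median -0.08). Over all genes tested 19.6% rose and 29.5% fell in the former comparison, and 4.41% were called in LIF. Cdk12 (log2 fold change 0.99) and Cdk13 (0.87), kinases of the polymerase tail, rose, and Nelfe (-0.89), a subunit of the pausing factor NELF, fell. Rescaling moved this split, to 5 higher and 7 lower by median-of-ratios and to 7 higher and 3 lower by quantile normalization. Of 5 genes for ubiquitination of histone H2B, a mark that stimulates Dot1l, 2 rose and 2 fell under Wnt3a and activin A, where 49.1% of all genes were called. Wac, a partner of the ligase Rnf20, rose from 30.2 to 69.1 FPKM, Rnf20 rose by 0.40 on the log2 scale and Ube2a, its conjugating enzyme, fell by 0.42. The Rnf20 call ended without control replicate 1 or 2 or KO replicate 1 or 2 (limma adjusted p from 0.101 to 0.122), and the log2 fold change of Ube2a was -0.098 after quantile normalization and did not pass (limma adjusted p = 0.118). None of the 5 was called in LIF, where the median was -0.01. Among 4 other proteins found in Dot1l purifications, Ctnnb1 (0.21) rose and Npm1 (-0.20) fell under Wnt3a and activin A, and none was called in LIF. The direction of Npm1 depended on the processing, with 0.59 after quantile normalization (limma adjusted p = 0.000972) and 0.51 with a trend in span and level removed (0.000828), and after the former 3 of these 4 genes were higher and none lower. Eaf1, Aff3, Ell3, Ccnt2, Cdk12, Cdk13, Nelfe, Wac and Ctnnb1 kept their calls and direction in all 13 alternatives. The Hox and Meis genes of leukaemia with rearranged MLL (Hoxa7, Hoxa9, Hoxa10 and Meis1) were all under a mean of 1 FPKM and were not tested.

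**Figure D5:**
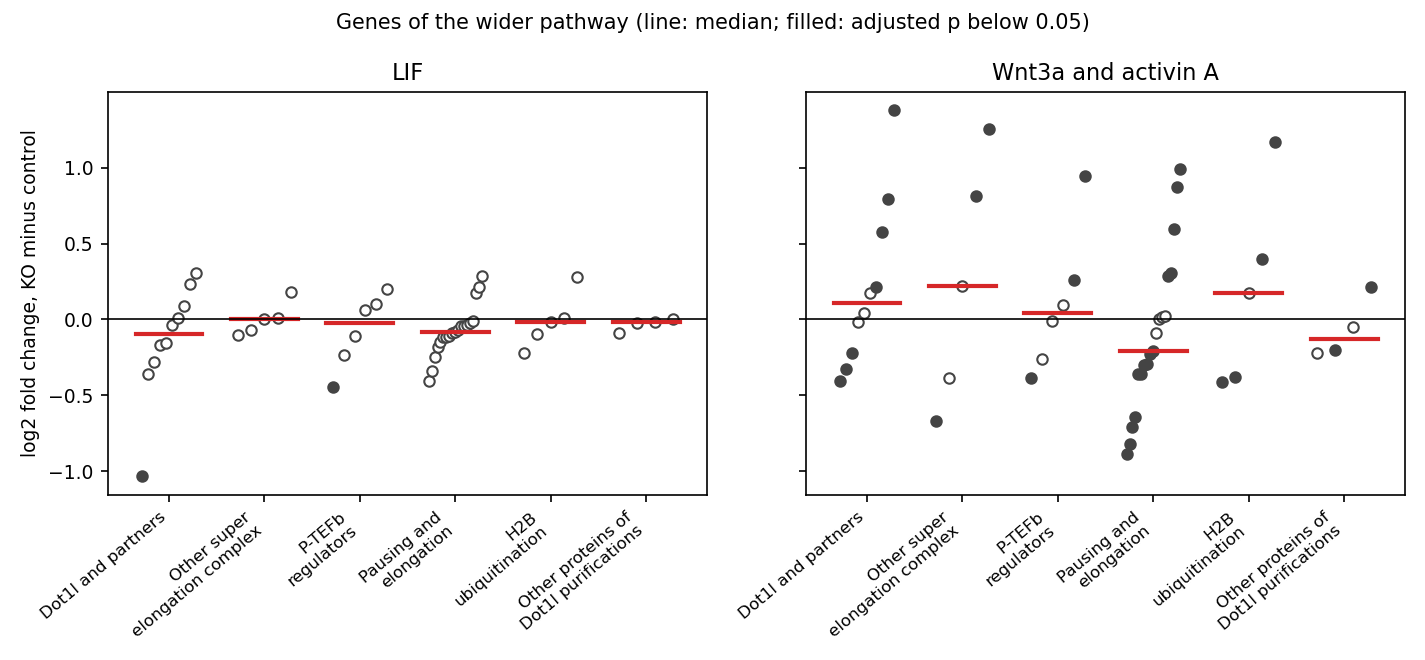
Log2 fold change, KO minus control on the log2(FPKM + 1) scale, of every tested gene of 6 lists, with LIF on the left and Wnt3a with activin A on the right; red lines are medians and filled points passed an adjusted p of 0.05. In LIF 2 points are filled, Dot1l and Hexim1, while on the right every list holds filled points on both sides of 0.

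The genes whose values most resembled those of Dot1l were found by Pearson correlation of log2(FPKM + 1), centred within each table, over 12 libraries and 11783 genes. Clone and predicted names (Gm followed by digits, or ending in Rik) were left out of the ranking, so genes with such names may be closer. They were Cntfr (r = 0.990), Irf2bp2 (0.960), Slc20a2 (0.957), Sod2 (0.957) and Fam89b (0.955). Centring by table keeps the KO difference in these values. Of the other 9 genes described here Mllt10 was the most similar (r = 0.476), and Mllt3 (-0.490) and Aff4 (-0.489) the least. All these values come from the same 12 libraries and are a description only.

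Markers checked the labelled cell type and what else moved with the groups. The summed FPKM of 5 ES cell markers was 1441 to 1477 in the ES cells group, 2330 to 2432 in Control LIF, 1941 to 2008 in Dot1l KO LIF, 1858 to 2001 in Control Wnt and 1116 to 1210 in Dot1l KO Wnt. Pou5f1 made up most of this sum in every group, at 1621 to 1694 FPKM in Control LIF and 1760 to 1904 in Control Wnt. Set side by side with no test, the other ES cell markers were all lower in Control Wnt than in Control LIF. Sox2 was at 207 to 220 FPKM in Control LIF and 5.76 to 7.57 in Control Wnt. Zfp42 (133 to 136) and Esrrb (211 to 230 FPKM in Control LIF) were under 5 FPKM in each Control Wnt library. In LIF all 5 fell in the KO, against 3.45% of all genes, led by Esrrb (-0.48), Sox2 (-0.43) and Zfp42 (-0.37). After median-of-ratios rescaling 3 of the 5 passed in LIF, and after quantile normalization also 3. Under differentiation 4 of 5 fell, against 29.5% of all genes, led by Pou5f1 (-0.74), Zfp42 (-0.50) and Nanog (-0.48). The latter Zfp42 call ended when genes of low level were kept (limma adjusted p = 0.0559) and without control replicate 2 (0.06) or KO replicate 1 (0.0563) or 3 (0.055). Pou5f1 was at -0.057 after quantile normalization (limma adjusted p = 0.384) and Nanog at -0.17 (0.162). In LIF the calls of these 3 leading ES cell markers and of the fibroblast markers Acta2 and Timp3 ended without any 1 of the 6 libraries. Primitive streak markers summed to under 5 FPKM in each LIF and ES cells library, to 646 to 698 FPKM in Control Wnt and to 944 to 967 FPKM in Dot1l KO Wnt, where all 5 rose, against 19.6% of all genes, led by Mesp1 (2.75), Mixl1 (1.56) and Eomes (1.17). Of 10 fibroblast and feeder markers, 2 of 6 tested rose in LIF (Acta2, 0.85, and Timp3, 0.61), against 0.958% of all genes. Under Wnt3a and activin A 4 of 7 rose, led by Col3a1 (1.15) and Col1a2 (1.13), against 19.6% of all genes. Both were at low levels, with means from 1.72 to 4.94 FPKM for Col3a1 and from 1.39 to 4.26 FPKM for Col1a2. Thy1 (-0.35, limma adjusted p = 0.0523) and Acta2 (0.08, limma adjusted p = 0.465) did not pass there. Tagln (-1.77) fell there, as did 29.5% of all genes. The sums of the 10 fibroblast and feeder markers were 151 to 203, 39.3 to 60.0, 73.8 to 81.5, 291 to 323 and 124 to 133 FPKM in the groups in the same order. Tagln made up most of the sum in both Wnt groups, at 250 to 281 FPKM in Control Wnt and 75.6 to 81.2 in Dot1l KO Wnt. Lum was listed at 0 in all libraries outside Dot1l KO Wnt, and Dcn in all Control LIF libraries. The part of these marker differences in the changes of Aff4, Aff1, Ell2 and the other genes was not tested, and in bulk RNA fewer cells of a type and less RNA per cell cannot be told apart. In Dot1l KO LIF replicate 3 the short gene Mir6236 held 28.6% of summed FPKM, while the other 5 libraries of Control LIF and Dot1l KO LIF had 5.25% to 8.31%. The depth of the libraries is unknown, since only FPKM was used.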

How the data were processed

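Expression values are FPKM as deposited by the authors, 1 column a library. The authors' p-value and q-value stand beside them in the KO tables. The submitters' processing notes name bcl2fastq 2.18, STAR 2.5.4a, Cuffdiff and Cufflinks 2.2.1, MACS2 2.1.1, Bowtie2 2.2.9, MACS 1.4.2 and Bowtie, without roles, and the builds mm9 and GRCm38. How libraries were scaled, and with which annotation release, is not stated by the sources used here. Depth is unknown, and the number of libraries limits the precision. FPKM divides by length and library total, so a few abundant genes can shift the rest.

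Genes whose mean reached 1 FPKM were tested in limma 3.58.1 (R 4.3.3) with a variance trend on log2(FPKM + 1), each KO table alone, two-sided, with Benjamini-Hochberg adjustment over all genes tested and a threshold of 0.05. The interaction used the 12 libraries of both tables. Fits were tested on simulated data. Ratios used exact permutation tests in SciPy 1.17.1 (Python 3.11.15). Alternatives were a pseudocount of 0.1, no filter, other scalings, no variance trend, a loess trend with gene span and level removed, a replicate block, and leaving out each library.

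Named were the 10 genes and, per list and condition, up to 3 called genes with the largest change, plus the 5 genes most like Dot1l outside clone and predicted names. Some results the rule would name are not reported here. Lists and members were chosen with earlier results of these data known. The deposited peak lists carry the authors' score per peak. Peaks of H3K79me2 were not joined to the genes: on 7 of 20 chromosomes both H3K79me2 lists reach past the end of the last GRCm38 gene, and genes at 0 FPKM held peaks at a median of 20.7% in the 3-MB-PP1 list, against 42.0% of expressed genes, so that the build was not settled.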

Additional observations from a re-analysis of the deposited data

Results flagged for a closer look

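For 5 of the 10 genes the effect of the KO differed between the conditions by a limma interaction over 12 libraries, each more positive under Wnt3a and activin A than in LIF. Of 11783 genes tested 38.3% were called in the same way, 17.6% more positive and 20.7% more negative. The differences on the log2 scale were 0.63 for Dot1l, 0.37 for Mllt1, 1.08 for Aff1, 1.15 for Aff4 and 0.74 for Ell2. Leaving out a library, rescaling, changing the filter, pseudocount or variance trend, removing the trend with span and level, or adding a replicate block ended none of the calls of Dot1l, Aff1 and Aff4. Mllt1 lost its call in 2 of these 19 analyses, after removal of a trend with span and level (adjusted p = 0.0548) and with a replicate block (0.0612), and Ell2 in 13 of 19.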

How the results depend on the processing

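Of all genes tested in LIF, 580 passed as reported, 259 with no filter, 360 with median-of-ratios rescaling, 269 with quantile normalization, 236 without a variance trend, 253 after removal of a trend with span and level, and 1 to 40 without 1 library. Of the 10 genes, the 1 called in LIF became 0 without any 1 library, the 7 under Wnt3a and activin A became 3 to 6, and the 5 that differed between conditions became 4 to 5, or 3 after removal of that trend. Higher genes made up 21.7% of calls in LIF (45.6%, 47.2% and 51% with median-of-ratios, quantile and trend removal) and 39.9% under Wnt3a and activin A (49.3%, 48.7% and 50.1%). The labels do not say whether replicate numbers pair libraries. Correlations of deviations between libraries of the same number were -0.00271 to 0.0426 in LIF and -0.0119 to 0.0621 under Wnt3a and activin A. Not every library matched its own number best. With 3 libraries a group these values cannot exclude pairing. With a replicate block 0 genes passed in LIF (2733 at an unadjusted p under 0.05), so 0 of the 10 (Dot1l adjusted p = 0.139), 6 of the 10 under Wnt3a and activin A and 3 between conditions.

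Signs turned for uncalled genes and, under Wnt3a and activin A, for Cdk9, Npm1 (0.59 with quantile normalization, 0.51 with trend removal) and Pou5f1 (0.014 with trend removal). In LIF, Cdk9 became 0.045, 0.056 and 0.10 with median-of-ratios, quantile and trend removal, and -0.12 to 0.063 without 1 library, and Ccnt1 became -0.068 to 0.10. Under Wnt3a and activin A, Cdk9 became 0.15 with quantile normalization and 0.25 with trend removal, Mllt6 0.062 with median-of-ratios rescaling and -0.083 to 0.047 without 1 library, Mllt3 -0.059 with trend removal and -0.066 to 0.37 without 1 library, and Ccnt1 -0.0096 to 0.14 without 1 library. Between conditions, quantile normalization and trend removal gave -0.042 and -0.13 for Mllt10, 0.10 and 0.16 for Cdk9, and -0.030 and -0.037 for Ccnt1. Without 1 library these were -0.14 to 0.21 for Mllt10, -0.37 to 0.067 for Mllt3 and -0.051 to 0.14 for Ccnt1. The cause was not tested. The within-library ratios were redone only with a pseudocount, without 1 library and with a replicate block, which leaves their means unchanged. None turned sign where its groups lay apart. Quantile normalization and trend removal, which turned the sign of Cdk9 under Wnt3a and activin A, were not applied to the ratios. The planned H3K79me2 values and their other window were not run.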
